A study of Homo sapiens with 12 samples.

Results

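Aminoacyl-tRNA synthetases are the enzymes that load each amino acid onto its tRNA, and 38 genes of this kind were followed through the polysome-associated mRNA of 3 triple-negative breast cancer cell lines in which TRMT112 was knocked down (KD) or overexpressed (OE). They were chosen by name: 17 synthetases that work in the cytosol, 2 enzymes (GARS1 and KARS1) whose single gene serves both the cytosol and mitochondria, 3 scaffold proteins of the multisynthetase complex (AIMP1, AIMP2 and EEF1E1), and 16 mitochondrial enzymes whose symbols end in 2. All 38 were in the deposited table, among 24559 gene symbols, and all 38 passed the filter on low counts and were among the 16538 genes tested.

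Human cells keep separate synthetases for translation by cytosolic ribosomes and for the small set of proteins made on mitochondrial ribosomes, and both sets are encoded in the nucleus. Some of the cytosolic enzymes are held with 3 scaffold proteins in the multisynthetase complex, while the others work outside it. Many genes of the cytosolic enzymes, unlike most of the mitochondrial ones, are known targets of ATF4, the transcription factor of the amino acid and integrated stress response. TRMT112 is a small activator protein for several methyltransferases that modify rRNA, tRNA and the termination factor eRF1.

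The 12 libraries came from MDA-MB-231 (genotypes EV CTRL and TRMT112 KD), SUM159 (EV CTRL and TRMT112 KD) and BT549 (EV CTRL and TRMT112 OE), with 2 libraries in each of 6 groups and no other treatment that differed between groups. Per the study's methods, all cells briefly received cycloheximide, which halts ribosomes on the mRNA, before lysis in a buffer that also held it. Per the study's methods, KD came from a lentiviral GIPZ shRNA plasmid that was transfected and selected with puromycin, with a non-silencing shRNA as its control. OE came from an expression clone of the open reading frame selected with G418, with an empty pReceiver-M02 vector as its control. The 3 lines were grown in different media, and BT549 also differed from the other lines in vector and selection drug. Line, medium, vector and drug therefore cannot be told apart between lines. Nothing states that replicates were separate cultures, so the p-values measure the spread between these libraries, which may be technical. RNA was taken from pooled polysome fractions of sucrose gradients. Total RNA was not analysed here, so a change in mRNA amount and a change in ribosome loading cannot be told apart, nor can fewer expressing cells and less mRNA per cell. Every value below is relative to the other polysome-associated mRNAs of its library.

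The libraries held 22954226 to 27434677 expected counts each. TRMT112 itself had normalized counts of 4132 and 3924 in EV against 1758 and 1676 after KD for MDA-MB-231, which is -1.23 ± 0.04 (log2 fold change ± SE, as throughout). It had 6310.2 and 6543 in SUM159 EV and 3895 and 3686 after KD (-0.76 ± 0.04), and 3065 and 3076 in BT549 EV and 4271 and 4305 in OE (0.48 ± 0.04), so the target moved as labelled in each line, by different amounts. The mesenchymal gene VIM was high in all 12 libraries, from 16762 to 47309 normalized counts. Of the other mesenchymal markers, ZEB1 had 721 to 2147. CDH2 was nearly absent from MDA-MB-231 (1.82 to 10.56) and had 1066 to 1685 in the other lines. The receptor gene ERBB2 had 1380 to 3409, and PGR and PTPRC did not pass the filter. The symbols ESR1, KRT5, CD3E and VWF have no row in the table, which lists only transcripts with counts in at least 1 BT549 library, so their levels in MDA-MB-231 and SUM159 were not analysed here. The epithelial keratin KRT18 was nearly absent from BT549, at 4.51 to 6.62 normalized counts, beside 8647 to 9824 in MDA-MB-231 and 4359 to 5116 in SUM159. EPCAM was low in BT549 (0 to 1.1) and SUM159 (1.0 to 4.01), beside 52.3 to 71.9 in MDA-MB-231. The epithelial genes CDH1 (63.3 and 50.8) and KRT19 (13.1 and 18.8) were instead highest in BT549 EV. They had at most 7.68 and 5.6 in MDA-MB-231 and SUM159. VIM fell in BT549 OE beside the results given below (-1.47 ± 0.03, adjusted p = 1.53e-22). There ZEB1 went from 2121 and 2147 in EV to 994 and 977 in OE, while CDH2 went from 1066 and 1097 to 1101 and 1197. In SUM159 the basal keratin KRT14 had 166 normalized counts in each EV library and 0 after KD, and the endothelial gene PECAM1 24.1 and 25.1 in EV and 88.4 and 103 after KD. The part of these shifts in the synthetase results was not tested.

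Together the 38 genes took 0.501% and 0.504% of all counts in MDA-MB-231 EV and 0.417% and 0.414% after KD. In SUM159 they took 0.46% in both EV libraries and 0.208% and 0.212% after KD, and in BT549 0.292% and 0.291% in EV and 0.305% and 0.306% in OE. The share was lower after KD in both lines, with no overlap between the libraries, and slightly higher in OE.

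Levels were compared between genes in TPM, each library's counts divided by transcript length and scaled to a common total. Summed over the 17 cytosolic enzymes, the level was 2817 and 2815 TPM in MDA-MB-231 EV against 2273 and 2268 TPM after KD. In SUM159 it went from 2147 and 2134 TPM in EV to 779 and 792 TPM after KD, while in BT549 it was 1455 TPM in each EV library and 1393 TPM in each OE library. The 16 mitochondrial enzymes summed to far less, at 508 and 511 TPM in MDA-MB-231 EV, 447 and 441 TPM in SUM159 EV and 348 and 341 TPM in BT549 EV. The ratio of the cytosolic to the mitochondrial sum was therefore 5.54 and 5.51 in MDA-MB-231 EV and 4.91 and 4.93 after KD. It was 4.80 and 4.83 in SUM159 EV and 2.57 and 2.54 after KD, and 4.19 and 4.26 in BT549 EV and 3.37 and 3.34 in OE. In each line the modified libraries lay below both EV libraries, and the sum's parts differed: in SUM159 both classes were lower, while in BT549 the mitochondrial sum was higher (414 and 417 TPM in OE). The lower cytosolic sum in BT549 OE rested on WARS1, which had 282 and 272 TPM in EV and 57.1 and 54.6 TPM in OE. With WARS1 left out, the cytosolic sum was higher in OE, going from 1173 and 1183 TPM (EV) to 1335 and 1338 TPM (OE), and the ratio went from 3.37 and 3.47 to 3.23 and 3.21.

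**Figure D1:**
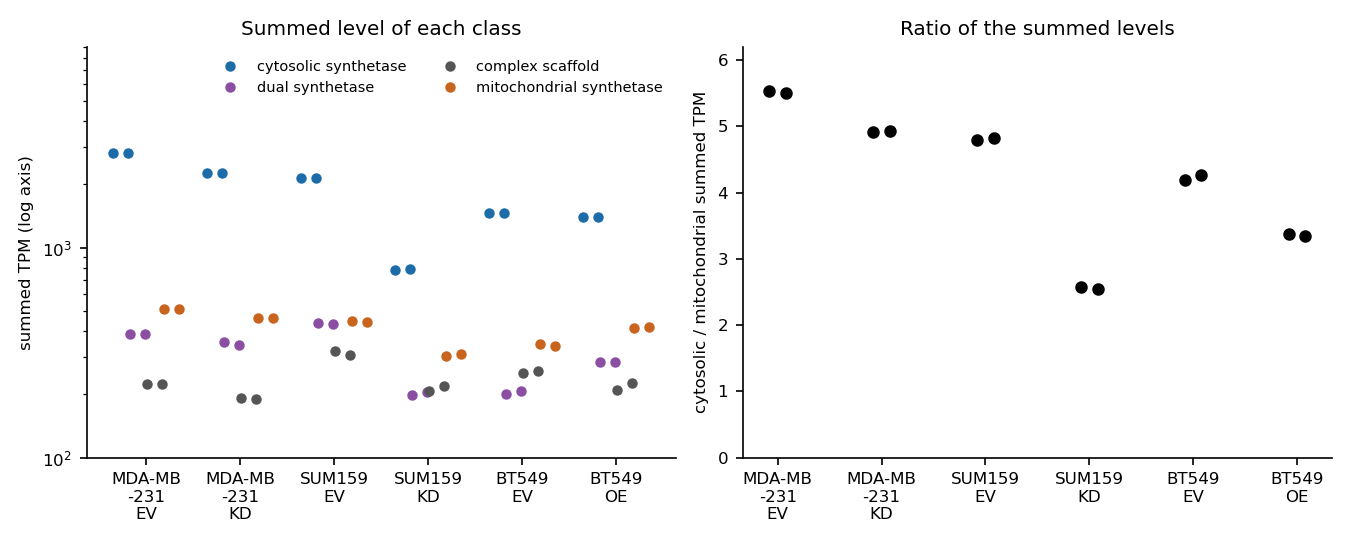
Left, summed TPM of each class of genes in each of the 12 libraries, on a log axis; right, the ratio of the cytosolic to the mitochondrial sum on a linear axis from 0. Each point is 1 library, 2 per group. The lowest ratios are those of the SUM159 KD libraries, 2.57 and 2.54.

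Among the EV groups the seryl-tRNA synthetase SARS1 had the highest level of the 38 in MDA-MB-231, 566 ± 8.63 TPM (SD, n = 2), followed by the tyrosyl enzyme YARS1 at 320 ± 5.99 TPM. YARS1 led in SUM159 at 306 TPM and in BT549 at 292 TPM, where the tryptophanyl enzyme WARS1 came next at 277 TPM. AARS2, the mitochondrial alanyl enzyme, was the lowest of the 38 in MDA-MB-231 (3.3 TPM) and SUM159 (5.1 TPM), and MARS2, the mitochondrial methionyl enzyme, in BT549 (4.3 TPM). The median level of the cytosolic enzymes was 152.5 TPM in MDA-MB-231 EV, 89.3 TPM in SUM159 EV and 41.8 TPM in BT549 EV, whereas the mitochondrial median stayed between 17.0 and 23.3 TPM. CARS2, the mitochondrial cysteinyl enzyme, was the most abundant of its class in all 6 groups (65.7 to 101 TPM) and, per length, it exceeded its cytosolic partner CARS1 in BT549 EV, where the ratio of CARS1 to CARS2 was 0.25.

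The EV groups differed for most genes, so the starting levels were compared first. Between MDA-MB-231 and SUM159, 11 of the 38 genes were called higher in MDA-MB-231 and 21 lower (adjusted p under 0.05, edgeR's quasi-likelihood test), where 75.7% of all genes were called, 36.4% higher and 39.2% lower. Between BT549 and MDA-MB-231, 11 were called higher in BT549 and 25 lower (79.5% of all genes called, 39.1% higher and 40.4% lower), and between BT549 and SUM159 10 higher and 26 lower (78.4% of all genes called, 37.7% higher and 40.7% lower). The share of members called in these comparisons, 32, 36 and 36 of 38, was near or somewhat above the background, with more of the calls lower in BT549. The largest difference was in CARS1, the cytosolic cysteinyl enzyme, with 5059.6 and 5091 normalized counts in MDA-MB-231 EV, 3028 and 2989 in SUM159 EV and 604 and 607 in BT549 EV, a log2 difference of -3.07 ± 0.05 between BT549 and MDA-MB-231. TARS1, the cytosolic threonyl enzyme, was also low in BT549 EV (-2.09 ± 0.04 against MDA-MB-231), whereas WARS1 was higher there than in either other line (0.97 ± 0.03 and 1.00 ± 0.03). Transcripts without counts in BT549 are not in the table, so genes seen only in MDA-MB-231 or SUM159 are missing from these background shares. These EV comparisons use the same EV libraries as the KD and OE comparisons below. In those with BT549 the line, medium, control vector and selection drug differ together.

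In MDA-MB-231, most of the cytosolic enzymes were lower after KD, each by a small amount. Of the 17, 14 were called lower and 0 higher, where 16.5% of all genes were called lower and 21.2% higher. Their median log2 fold change was -0.26, against 0 over all genes tested, and the range was -0.38 to 0.05. HARS1, LARS1 and RARS1, the histidyl, leucyl and arginyl enzymes, were not called (0.05 ± 0.04, -0.10 ± 0.07 and -0.08 ± 0.06). Scaled by library size only, all genes split into 2363 called higher and 4082 lower in place of 3505 and 2735, and 30 of the 38 members were called in place of 23.

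The largest decreases among the cytosolic enzymes in MDA-MB-231 were in TARS1, FARSB and IARS1. TARS1 had 7118 and 7179 normalized counts in EV and 5536 and 5432 after KD, a log2 fold change of -0.38 ± 0.03 (adjusted p = 5.55e-09). FARSB, the beta subunit of the phenylalanyl enzyme, went from 2493 and 2605 to 1938 and 2006 (-0.37 ± 0.05, adjusted p = 9.19e-07). IARS1, the isoleucyl enzyme of the multisynthetase complex, went from 7983 and 7745 to 6171 and 6153 (-0.35 ± 0.03, adjusted p = 9.78e-09). In each of the 3 genes the KD libraries lay below both EV libraries, and the decrease was 21.6% to 23.3% of the EV level. Here and below, genes named for the largest called changes are likely to have separate libraries by that choice. Their separation is therefore no further support, and the share of all genes so separated is not given here.

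The mitochondrial enzymes were mixed in MDA-MB-231: 6 of 16 were called lower, 1 higher and 9 were not called, with a median of -0.08, where 16.5% of all genes were called lower and 21.2% higher. The share of 1 in 16 called higher was thus below the background. MARS2 had 693 and 719 normalized counts in EV and 433 and 439 after KD (-0.70 ± 0.09, adjusted p = 1.62e-06), the largest decrease of any member in this line. FARS2, the mitochondrial phenylalanyl enzyme, went from 460.3 and 462 to 297 and 348 (-0.52 ± 0.09, adjusted p = 7.3e-05), and VARS2, the mitochondrial valyl enzyme, from 471 and 402 to 334 and 319 (-0.42 ± 0.10, adjusted p = 0.00211). LARS2, WARS2 and YARS2, the leucyl, tryptophanyl and tyrosyl enzymes of mitochondria, were also called lower, by 0.21 to 0.41 on the log2 scale. The one member called higher was NARS2, the mitochondrial asparaginyl enzyme, described with the opposite changes below. The weakest calls in this line turned on single libraries. CARS1 lost its call without any 1 of the 4 (adjusted p = 0.0808 to 0.138), KARS1 and WARS2 without any but KD replicate 1 (0.0894 to 0.279 and 0.05 to 0.342), EPRS1 without EV replicate 2 or KD replicate 1 (0.126 and 0.127), and QARS1 without EV replicate 1 or KD replicate 1 (0.0946 and 0.0598). VARS2 lost it without EV replicate 1 (0.0648), and LARS2 and YARS2 without KD replicate 2 (0.0539 and 0.119).

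In SUM159 KD the decrease took in every cytosolic enzyme and was several times larger. All 17 were called lower, where 31.4% of all genes were called lower and 28.6% higher, with a median log2 fold change of -1.10 against 0 over all genes. Of the 17, 12 fell by at least 1 on the log2 scale, as did 1832 of all 16538 genes tested.

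MARS1, the methionyl enzyme of the multisynthetase complex, fell the most of the 38: its normalized counts were 7734 and 8178 in EV and 1368 and 1336 after KD, a log2 fold change of -2.56 ± 0.04 or 5.89-fold lower (adjusted p = 1.07e-23). CARS1 went from 3028 and 2989 to 839 and 799 (-1.88 ± 0.05, adjusted p = 7.43e-20), and TARS1 from 6399 and 6193 to 1796 and 1935 (-1.75 ± 0.04, adjusted p = 8.84e-21). The KD libraries lay far below the EV libraries in each of these genes, which were chosen for the largest called decreases. SARS1, IARS1, NARS1 (the cytosolic asparaginyl enzyme) and WARS1 followed, at -1.72, -1.67, -1.54 and -1.36. The smallest decrease was in QARS1, the glutaminyl enzyme of the complex, which went from 2255 and 2257 to 1746 and 1744 (-0.37 ± 0.05). The range within the class, from -2.56 to -0.37, was therefore wider than the class's median change.

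The mitochondrial enzymes had smaller decreases in SUM159. Of 16, 13 were called lower, 0 higher and 3 were not called (CARS2, RARS2 and WARS2), with a median of -0.51 and a range of -1.00 to -0.04, where 31.4% of all genes were called lower. MARS2 had 358 and 406 normalized counts in EV and 175 and 206 after KD (-1.00 ± 0.11, adjusted p = 3.07e-08). IARS2, the mitochondrial isoleucyl enzyme, went from 2866 and 2914 to 1495 and 1542 (-0.93 ± 0.04, adjusted p = 1.75e-15), and SARS2, its seryl counterpart, from 913 and 984 to 569 and 548 (-0.77 ± 0.07, adjusted p = 5.66e-10). No KD library overlapped an EV library in these genes, which were chosen for the largest called decreases. For CARS2 the counts were 1926 and 1932 in EV and 1882 and 1875 after KD (-0.04 ± 0.05, adjusted p = 0.529), beside its cytosolic partner's fall from 3028 and 2989 to 839 and 799.

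**Figure D2:**
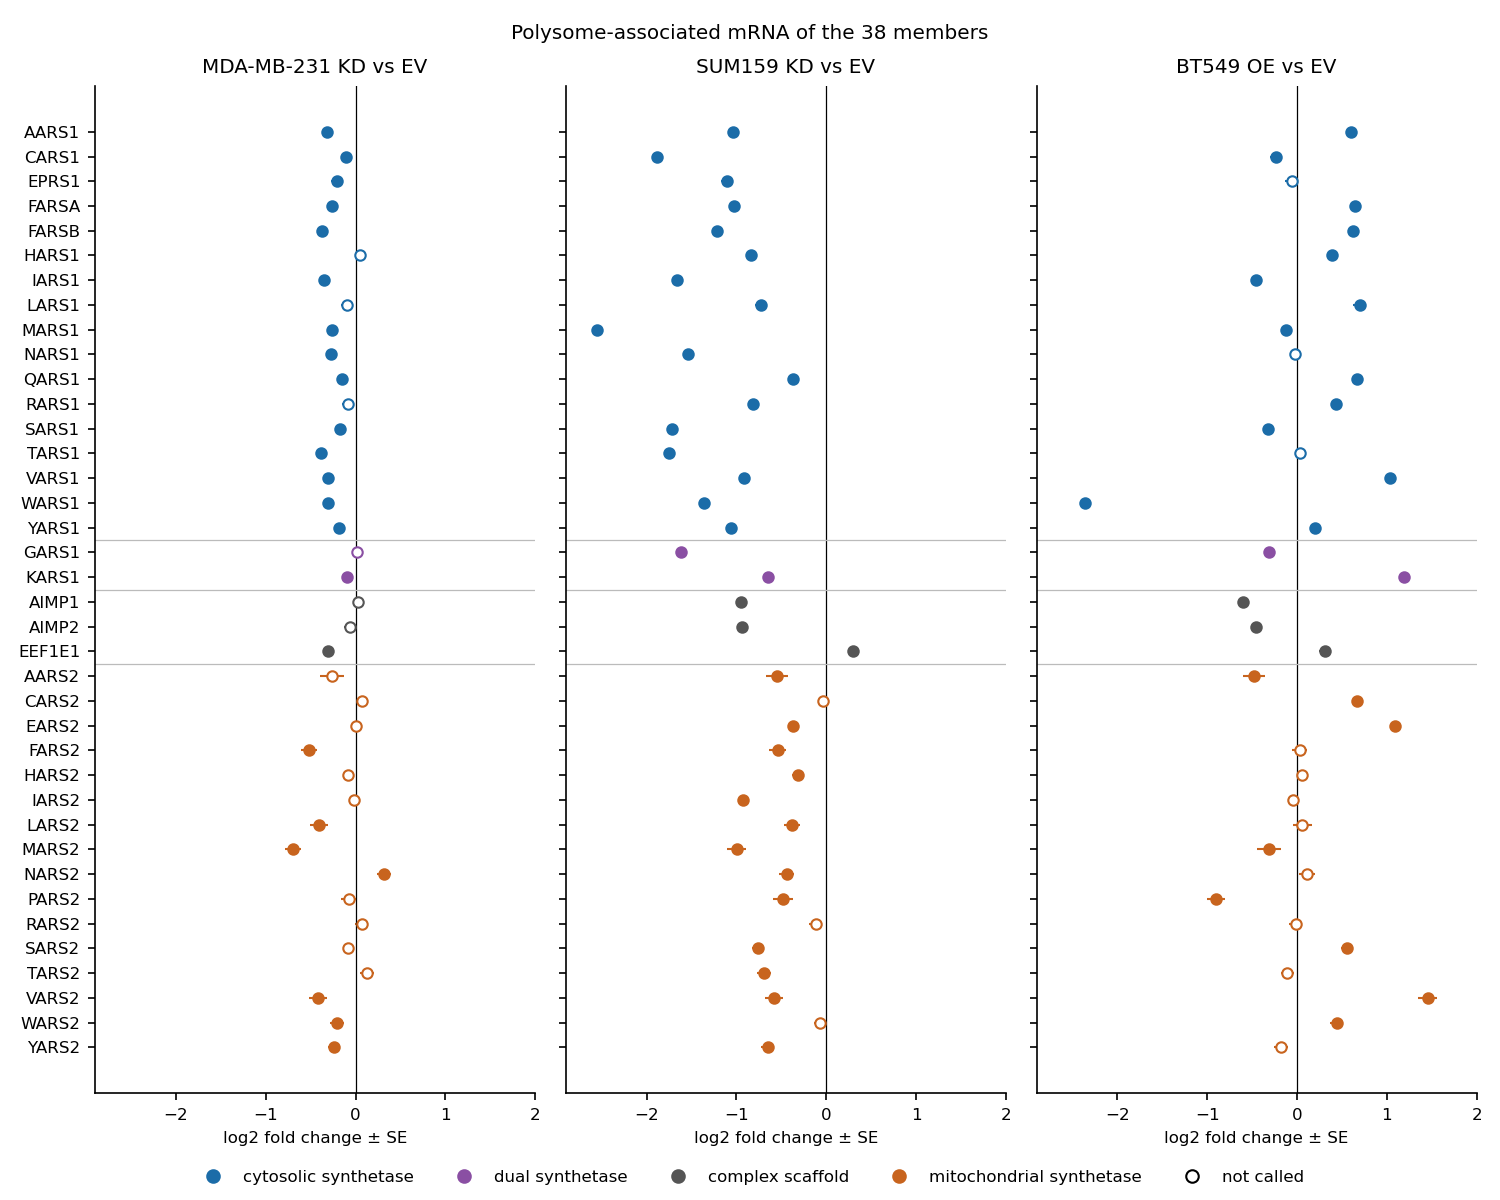
Log2 fold change of each of the 38 genes (rows) in the 3 comparisons (panels), with bars of 1 SE. Filled points were called at an adjusted p under 0.05 and open points were not, and colours mark the class. In SUM159 all 17 cytosolic points lie left of 0, whereas in BT549 OE they spread from -2.37 to 1.03.

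The KD effects of both lines were compared in the same model. For all 17 cytosolic enzymes the effect in MDA-MB-231 minus the effect in SUM159 was called above 0, that is, the decrease was larger in SUM159, where 27.7% of all genes had a difference called above 0 and 23.2% below 0. The largest differences were in MARS1 (2.29 ± 0.05, adjusted p = 3.82e-20), CARS1 (1.77 ± 0.06), SARS1 (1.55 ± 0.05) and TARS1 (1.37 ± 0.05). The smallest was in QARS1 (0.22 ± 0.06, adjusted p = 0.00388). Of the mitochondrial enzymes 8 of 16 had a difference called above 0 and 0 below, led by IARS2 (0.91 ± 0.05) and TARS2, the mitochondrial threonyl enzyme (0.82 ± 0.11). MARS2, FARS2, LARS2 and VARS2, which were called lower in both lines, had differences of 0.30 ± 0.14, 0.02 ± 0.13, -0.02 ± 0.13 and 0.16 ± 0.14, none called. TRMT112 itself fell more in MDA-MB-231, the line with the smaller synthetase changes (difference -0.47 ± 0.06).

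A further set of members had KD effects of opposite sign in the 2 lines with the difference called. NARS2 had 639 and 583 normalized counts in MDA-MB-231 EV and 796 and 728 after KD (0.32 ± 0.08, adjusted p = 0.00281), but 666 and 583 in SUM159 EV and 435 and 483 after KD (-0.44 ± 0.09, adjusted p = 0.000104). The libraries did not overlap in either line, though the MDA-MB-231 call was lost without EV replicate 2 (adjusted p = 0.0554) or without KD replicate 1 (0.0609). EEF1E1, a scaffold protein of the complex also known as AIMP3, moved the other way: 1044 and 1037 in MDA-MB-231 EV and 868 and 818 after KD (-0.30 ± 0.06, adjusted p = 0.00044), but 1227 and 1150.1 in SUM159 EV and 1397 and 1515 after KD (0.29 ± 0.06, adjusted p = 0.000121). It was the only member called higher in SUM159 KD, where the other 2 scaffolds fell. HARS1 had 3954 and 4006 in MDA-MB-231 EV and 4230.1 and 4011 after KD (0.05 ± 0.04, adjusted p = 0.293), beside 2188 and 2208 in EV against 1239 and 1224 after KD for SUM159 (-0.84 ± 0.04, adjusted p = 3.93e-14).

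EARS2, the mitochondrial glutamyl enzyme, had 1255 and 1259 in EV against 1291 and 1232 after KD for MDA-MB-231 (0.00 ± 0.05, adjusted p = 0.985), beside 1635 and 1710.1 in EV against 1304 and 1294 after KD for SUM159 (-0.37 ± 0.05, adjusted p = 8.24e-07). TARS2 had 532 and 499.6 in EV against 573 and 556 after KD for MDA-MB-231 (0.13 ± 0.08, adjusted p = 0.204), beside 802 and 743 in EV against 506 and 452 after KD for SUM159 (-0.69 ± 0.08, adjusted p = 3.24e-08). These genes, with GARS1 and AIMP1 described below, had positive values in MDA-MB-231 that were not called, and all but TARS2 turned negative there when scaled by library size only.

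**Figure D3:**
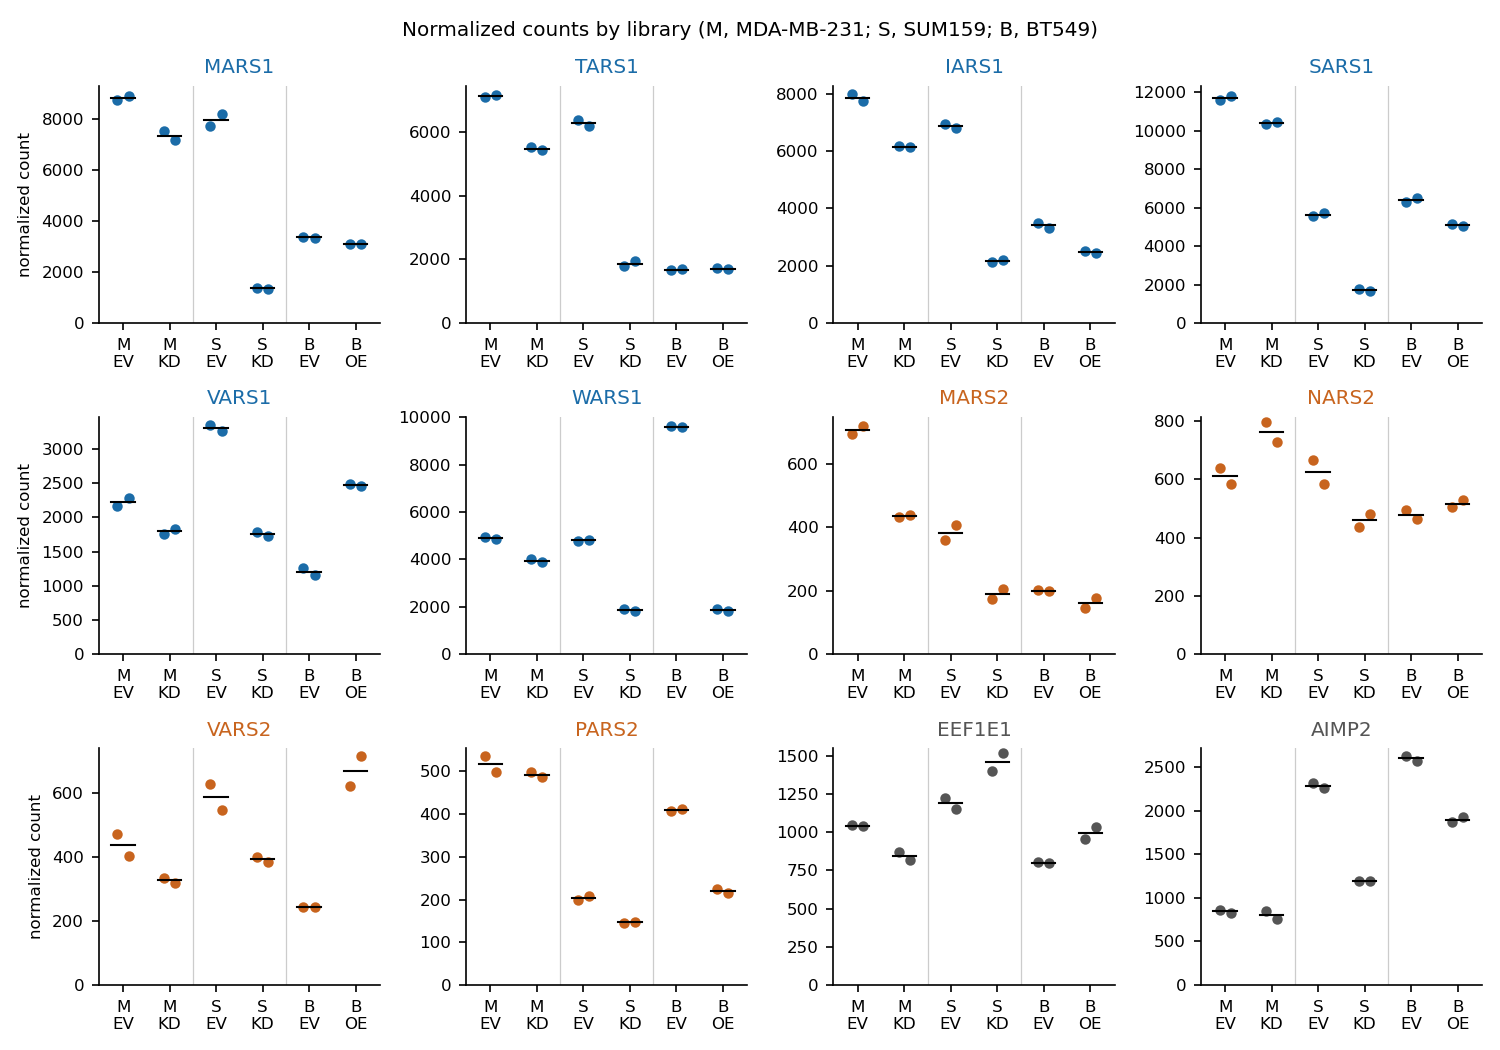
Normalized counts of 12 members in each library (points), with group means as lines and linear axes from 0; M is MDA-MB-231, S is SUM159 and B is BT549. MARS1 falls from 7734 and 8178 in SUM159 EV to 1368 and 1336 after KD, and EEF1E1 is higher in SUM159 KD than in its EV.

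Each amino acid with both a cytosolic and a mitochondrial enzyme gives a pair that carries the same amino acid in 2 compartments. There were 17 such pairs, counting the subunits FARSA and FARSB separately against FARS2, and the bifunctional EPRS1 (glutamyl and prolyl) against both EARS2 and PARS2, so pairs that share an enzyme are not independent. In SUM159 the cytosolic enzyme fell more than its mitochondrial partner in 17 of 17 pairs, with a median difference of -0.69 on the log2 scale. The differences ran from -0.34 for valine (VARS1 and VARS2) to -1.84 for cysteine (CARS1 and CARS2), with methionine (-1.56) and tryptophan (-1.30) also large. In MDA-MB-231 the cytosolic change lay below the mitochondrial one in 10 of 17 pairs, with a median difference of -0.09, and the extremes were asparagine (-0.59) and methionine (0.43). In BT549 OE it lay below in 7 of 17 pairs, with a median difference of 0.19.

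**Figure D4:**
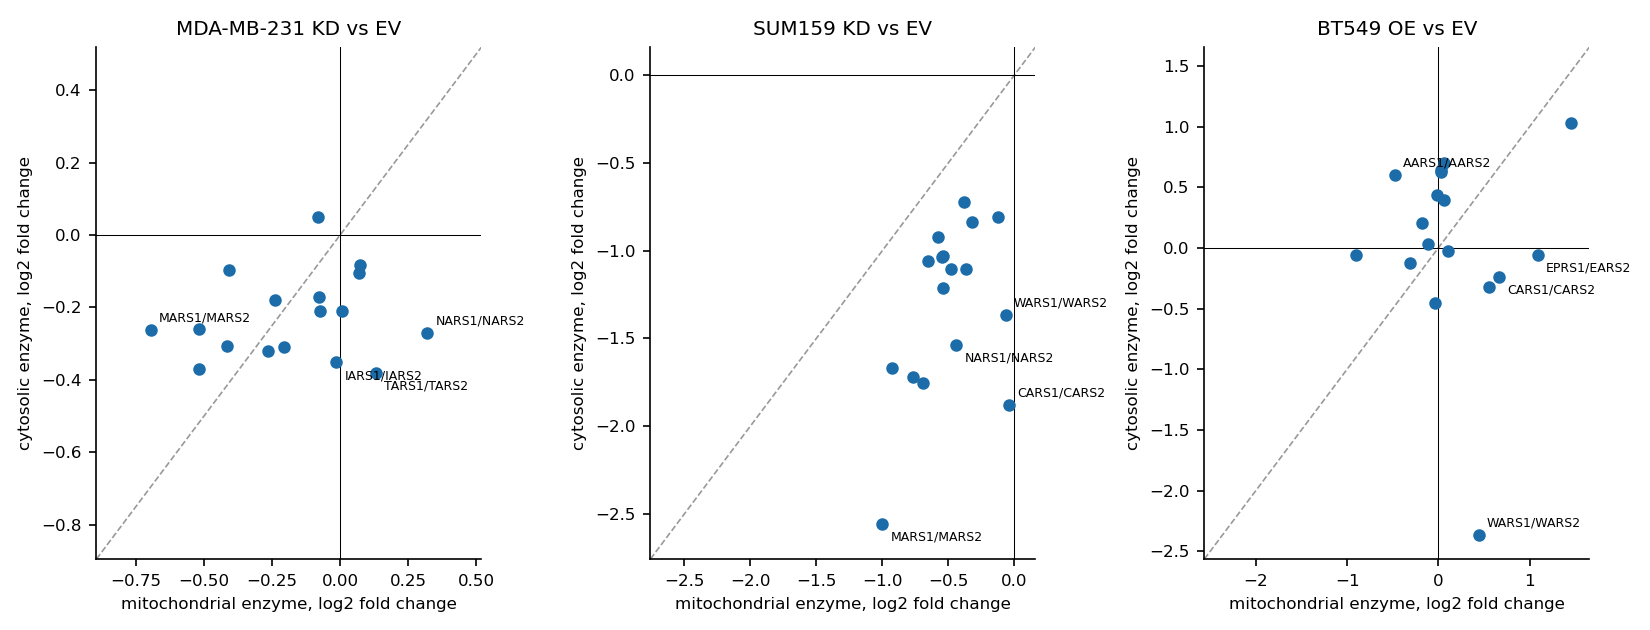
Log2 fold change of the cytosolic enzyme (vertical) against that of the mitochondrial enzyme for the same amino acid (horizontal), 17 pairs in each comparison, with the dashed line of equal change and the 4 pairs farthest from it named. In SUM159 all 17 points lie below the line, by 0.34 to 1.84.

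In BT549 OE the cytosolic enzymes split. Of the 17, 9 were called higher and 5 lower, with 3 not called, where 35.6% of all genes were called higher and 35.0% lower, so the share called lower was near the background. The median log2 fold change was 0.20, against 0.02 over all genes.

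VARS1, the valyl enzyme, rose the most of the cytosolic class: 1262 and 1152 normalized counts in EV and 2486 and 2456 in OE (1.03 ± 0.05, adjusted p = 8.51e-15). LARS1 went from 1446 and 1254 to 2139.8 and 2241 (0.70 ± 0.07, adjusted p = 4.01e-09) and QARS1 from 1190.4 and 1198 to 1986 and 1807 (0.67 ± 0.05, adjusted p = 2.8e-11). In all 3 genes, chosen for the largest called increases, both OE libraries lay above both EV libraries, which is no further support. FARSA, FARSB, AARS1, RARS1, HARS1 and YARS1 also rose, by 0.20 to 0.65, and both subunits of the phenylalanyl enzyme rose by nearly the same amount (0.65 and 0.63).

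WARS1 fell further than any member in any of the other comparisons between EV and modified cells except MARS1 in SUM159: 9618 and 9583 normalized counts in EV and 1914 and 1812 in OE, a log2 fold change of -2.37 ± 0.04 or 5.15-fold lower (adjusted p = 2.28e-24). IARS1 went from 3506 and 3323 to 2522 and 2461 (-0.45 ± 0.04, adjusted p = 2e-10) and SARS1 from 6268 and 6496 to 5160.3 and 5055 (-0.32 ± 0.03, adjusted p = 4.33e-09). These decreases were several times smaller than that of WARS1, and no libraries overlapped in these genes, again chosen for the largest called decreases. CARS1 and MARS1 were called lower by 0.24 and 0.12, CARS1 not without OE replicate 2 (adjusted p = 0.0663). EPRS1, NARS1 and TARS1 were not called (-0.06 ± 0.07, -0.03 ± 0.04 and 0.03 ± 0.04).

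Of the 16 mitochondrial enzymes 5 rose, 3 fell and 8 were not called in BT549 OE, with a median of 0.04. Where 35.6% of all genes were called higher and 35.0% lower, these counts were no higher than the background. VARS2 rose the most of the 38, from 242 and 244 to 619 and 715 (1.46 ± 0.11, adjusted p = 1.47e-11), so that both valyl enzymes rose. EARS2 went from 817 and 819.9 to 1707 and 1777 (1.09 ± 0.05, adjusted p = 1.11e-14) and CARS2 from 1820.0 and 1679 to 2875 and 2680.2 (0.67 ± 0.05, adjusted p = 1.92e-11). The other 2 that rose were SARS2 (0.56) and WARS2 (0.44), each beside a cytosolic partner that fell. PARS2, the mitochondrial prolyl enzyme, went from 407 and 413 to 225 and 214 (-0.90 ± 0.10, adjusted p = 2.33e-08), AARS2 from 322 and 338 to 254 and 219 (-0.48 ± 0.12, adjusted p = 0.00117) and MARS2 from 201 and 199 to 146 and 176 (-0.31 ± 0.13, adjusted p = 0.0369). The MARS2 call was the weakest of the 3 and was lost without either EV library or without OE replicate 1 (adjusted p = 0.08 to 0.301).

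Each line has its own EV libraries, so the calls of the 3 comparisons can be set side by side. Called lower in both KD lines were 14 of the 17 cytosolic and 5 of the 16 mitochondrial enzymes, and 20 of the 38 in all, against 7.47% of all genes. Of these 20, 8 were called higher in OE (AARS1, FARSA, FARSB, QARS1, VARS1, YARS1, KARS1 and VARS2). Another 6 were called lower in OE as well (CARS1, IARS1, MARS1, SARS1, WARS1 and MARS2). Over all genes, 1236 were called lower in both KD lines, of which 495 were called higher in OE and 487 lower (2.99% and 2.94% of all genes tested). Among genes lower in both KD lines, the members' split in OE was therefore near the background. Genes lower in both KD lines were thus called in either direction in OE, in a different cell line.

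The dual enzymes differed from each other. GARS1, the glycyl enzyme, had 3742 and 3752 normalized counts in MDA-MB-231 EV and 3867 and 3693 after KD (0.01 ± 0.04, adjusted p = 0.847). It had 5414 and 5417 in EV against 1812 and 1719 after KD for SUM159 (-1.62 ± 0.04, adjusted p = 6.9e-20) and 4394 and 4374 in EV against 3642 and 3435 in OE for BT549 (-0.31 ± 0.04, adjusted p = 1.44e-07). Its libraries overlapped in MDA-MB-231 and were separate in the other lines. KARS1, the lysyl enzyme and a member of the complex, had 6113 and 6081 in EV against 5817 and 5571 after KD for MDA-MB-231 (-0.10 ± 0.03, adjusted p = 0.024), 7305 and 7319 in EV against 4596 and 4729 after KD for SUM159 (-0.65 ± 0.03, adjusted p = 6.45e-14), and 2559.8 and 2739.9 in EV against 6022 and 6041 in OE for BT549 (1.19 ± 0.04, adjusted p = 1.48e-18). KARS1 thus fell less than GARS1 in SUM159 and rose in OE, where GARS1 fell.

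Of the scaffolds, AIMP1 had 1298 and 1387 normalized counts in MDA-MB-231 EV and 1343 and 1397 after KD (0.03 ± 0.05), 1628 and 1663 in EV against 828 and 880.0 after KD for SUM159 (-0.94 ± 0.05, adjusted p = 3.43e-13), and 1719.6 and 1745 in EV against 1126 and 1156 in OE for BT549 (-0.60 ± 0.05, adjusted p = 5.84e-10). AIMP2 had 859 and 829 in EV against 849 and 762 after KD for MDA-MB-231 (-0.07 ± 0.06), 2315 and 2261 in EV against 1198 and 1195 after KD for SUM159 (-0.94 ± 0.05, adjusted p = 8.24e-14), and 2626 and 2574 in EV against 1866 and 1927 in OE for BT549 (-0.46 ± 0.05, adjusted p = 1.01e-08). Both fell in SUM159 KD and in BT549 OE, while EEF1E1 rose in both (803 and 799 in BT549 EV and 957 and 1034 in OE, 0.31 ± 0.07, adjusted p = 0.000202). AIMP2 shares 29.1% of its exonic bases with EIF2AK1 on the opposite strand, whose mean normalized count was 7769 against 1605 for AIMP2, and since no source used here gives the strand setting of the counting, reads of the 2 genes cannot be told apart. The 7 enzymes of the complex itself (EPRS1, IARS1, KARS1, LARS1, MARS1, QARS1 and RARS1) had median changes of -0.15 in MDA-MB-231, -0.81 in SUM159 and 0.44 in BT549 OE, beside -0.27, -1.29 and 0.12 for the 12 cytosolic or dual enzymes outside it.

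Among the 19 cytosolic and dual enzymes, 13 were listed as known ATF4 targets (AARS1, CARS1, EPRS1, GARS1, IARS1, LARS1, MARS1, NARS1, SARS1, TARS1, VARS1, WARS1 and YARS1), a list made with earlier results of these data known. In SUM159 KD all 13 were called lower with a median of -1.54, beside 6 of 6 and a median of -0.82 for the other cytosolic and dual enzymes (FARSA, FARSB, HARS1, KARS1, QARS1 and RARS1). In MDA-MB-231 KD 11 of 13 were called lower (median -0.26), beside 4 of 6 (median -0.12). In BT549 OE 4 of the 13 were called higher and 6 lower (median -0.06), while all 6 of the others were called higher (median 0.64). Of all genes 31.4% were called lower in SUM159 KD, 16.5% lower in MDA-MB-231 KD, and 35.6% higher and 35.0% lower in BT549 OE, so the 4 of 13 called higher and 6 of 13 called lower in OE were near the background. ATF4 mRNA had 16422 and 16516 normalized counts in MDA-MB-231 EV and 15812 and 16038 after KD (-0.05 ± 0.03, adjusted p = 0.192), 18742 and 19625 in EV against 9507 and 9538 after KD for SUM159 (-1.01 ± 0.03, adjusted p = 8.23e-19), and 4744 and 4556 in EV against 2792 and 2766 in OE for BT549 (-0.74 ± 0.03, adjusted p = 2.51e-15). Its polysome-associated mRNA was thus lower in SUM159 KD and in BT549 OE, and was not called in MDA-MB-231 KD. The part of ATF4 in the synthetase changes was not tested.

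Most other genes of the ATF4 programme were called lower in each comparison, unlike the cytosolic enzymes in BT549 OE. Of 29 such genes outside the synthetases, 23 were called lower and 3 higher in MDA-MB-231 KD (median -0.33), 25 lower and 2 higher in SUM159 KD (median -1.66), and 21 lower and 6 higher in BT549 OE (median -0.68). The shares of all genes called lower in these comparisons were 16.5%, 31.4% and 35.0%, and those called higher 21.2%, 28.6% and 35.6%. By smallest p these were SLC7A5, a large neutral amino acid transporter (0.49 ± 0.03), asparagine synthetase ASNS (-0.82 ± 0.05) and the stress transcription factor DDIT3 (-1.11 ± 0.08) in MDA-MB-231. In SUM159 they were the serine synthesis enzyme PSAT1 (-2.68 ± 0.04), the cystine transporter SLC7A11 (-4.31 ± 0.06) and the mTORC1 inhibitor DDIT4 (-2.07 ± 0.03), and in BT549 OE DDIT4 (-1.74 ± 0.03), SLC7A5 (-1.45 ± 0.03) and the secreted glycoprotein STC2 (1.27 ± 0.04). DDIT3 shares 355 exonic bases with MARS1 on the opposite strand, 5.05% of those of MARS1.

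Promoter windows of the members were then searched, since most of the cytosolic enzymes had been called lower in both KD lines. RefSeq's table (GRCh38.p14) gives windows from 250 bases before to 50 bases after a gene's start for 33 of the 38 members (LARS1, VARS1, YARS1, AARS2 and VARS2 are the other 5). The letters TGATGNAA, the core of the C/EBP-ATF response element that ATF4 is known to bind, were found on either strand in the windows of 8 members: 6 cytosolic (AARS1, CARS1, IARS1, MARS1, NARS1 and TARS1), 1 dual (GARS1), 0 scaffolds and 1 mitochondrial (YARS2), where 4.46% of all 27305 genes with a window hold them (3.62% of 35116 windows). They did not overlap the E-box letters CACGTG, which were found in windows of 5 members (AIMP2, IARS1, CARS2, EARS2 and MARS2), where 8.77% of all genes with a window hold them. A match is a description of the letters and not of binding. Of the 8 members with a match, the 6 with the largest SUM159 decreases are shown around it (SARS1, the 4th largest decrease of all members, has no match in its window), 5′ to 3′ along the gene, with the letters on either strand in capitals (TTNCATCA is the opposite strand of TGATGNAA):
MARS1: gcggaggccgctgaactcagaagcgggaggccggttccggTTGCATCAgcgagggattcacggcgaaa
CARS1: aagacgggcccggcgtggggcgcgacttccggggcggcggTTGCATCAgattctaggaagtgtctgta
TARS1: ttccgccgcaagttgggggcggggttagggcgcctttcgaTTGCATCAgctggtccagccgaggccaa
IARS1: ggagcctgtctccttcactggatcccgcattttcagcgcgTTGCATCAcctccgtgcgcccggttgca
NARS1: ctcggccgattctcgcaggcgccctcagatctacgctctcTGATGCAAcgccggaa
GARS1: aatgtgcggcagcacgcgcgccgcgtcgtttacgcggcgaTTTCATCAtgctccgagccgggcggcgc

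The MARS1, CARS1 and TARS1 stretches lie at chr12:57488024-57488091 on the plus strand, chr11:3057398-3057465 on the minus strand and chr5:33440927-33440994 on the plus strand. Those of IARS1, NARS1 and GARS1 lie at chr9:92293683-92293750 on the minus strand, chr18:57621807-57621862 on the minus strand and chr7:30594805-30594872 on the plus strand. In 5 of these 6 windows the match is TTGCATCA or its opposite strand TGATGCAA, and in GARS1 it is TTTCATCA. The 7 cytosolic or dual enzymes with the letters had a median change of -1.67 on the log2 scale in SUM159 KD (range -2.56 to -1.03), beside -1.03 (range -1.72 to -0.37) for the 9 with a window without them. In MDA-MB-231 KD the medians were -0.27 and -0.17, and in BT549 OE -0.12 and 0.44. The 2 sets overlapped in each comparison: SARS1 fell by 1.72 in SUM159 KD without the letters in its window, and AARS1 by 1.03 with them.

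The KARS1 gene makes its cytosolic and mitochondrial enzymes from different transcripts, so the transcripts were compared as deposited. KARS1-201 codes for 597 residues, the cytosolic form, and KARS1-202 for 625 residues, the mitochondrial precursor, which starts in an exon that KARS1-201 leaves out. That exon is exon 2, chr16:75644283-75644462 on the minus strand (GRCh38, GENCODE 44). Its coding part (chr16:75644283-75644428, 146 bases) is shown because the exon separates the forms, with the start codon in capitals:
KARS1-202 exon 2: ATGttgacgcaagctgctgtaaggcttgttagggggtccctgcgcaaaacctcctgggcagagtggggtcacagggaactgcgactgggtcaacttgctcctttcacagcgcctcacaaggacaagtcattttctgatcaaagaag

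In SUM159 KARS1-201 went from 5198 and 5148 normalized counts in EV to 2204 and 2379.6 after KD, a log2 fold change of -1.17 ± 0.07 (adjusted p = 9.88e-07). KARS1-202 had 1946 and 1839.7 in EV and 2221 and 2041 after KD (0.17 ± 0.12, adjusted p = 0.449), so the decrease that passed the test was that of the cytosolic form. The share of KARS1 counts in KARS1-202 was 26.7 and 25.5 percent in EV and 49 and 43.9 percent after KD. The share of the gene was tested with limma on the log2 ratio of a transcript to the rest of its gene, each transcript with its own spread. The ratio of KARS1-202 differed by 1.30 between KD and EV (adjusted p = 0.0492) and that of KARS1-201 by -1.32 (adjusted p = 0.0261), where 0.515% of 59573 transcripts were called in this comparison. These calls lie at the threshold. That of KARS1-202 was lost without any 1 of the 12 libraries (adjusted p = 0.0514 to 0.208) and with the replicate number as a block (adjusted p = 0.0856), with the difference between 1.15 and 1.45. That of KARS1-201 was lost without any 1 of the SUM159 libraries (adjusted p = 0.076 to 0.121) and without any 1 of the EV libraries of the other lines (0.0516 to 0.0524). In edgeR's diffSpliceDGE, which pools the spread within a gene, the adjusted p was 0.00102 for KARS1-202 and 0.0254 for KARS1-201. In MDA-MB-231 the share in KARS1-202 was 27.6 and 26.3 percent in EV and 25.9 and 31.2 percent after KD, with 0 of 269 member transcripts called by limma's share test (15 at an unadjusted p under 0.05) and 0 by diffSpliceDGE, where 0.0772% of all transcripts were called by limma. In BT549 it was 34.8 and 33.1 percent in EV and 24.7 and 32.1 percent in OE, with 2 OE libraries that differed by more than the EV libraries did, and both transcripts rose (KARS1-201 1.35 ± 0.07, KARS1-202 0.95 ± 0.12). Transcripts this alike share most of their reads, so these counts are estimates of the authors' counting.

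WARS1 transcripts divide by their first exon. Of 42 in the table, 17 start from the upstream one (chr14:100376260-100376335, GRCh38) and 14 from the downstream one (chr14:100375283-100375347), and transcription from the downstream start is known to respond to interferon. Its window holds the letters GAAANNGAAA, the core of an interferon-stimulated response element, and the letters do not overlap the other motifs searched. Among the 33 members with a window EARS2 also holds them, where 4.38% of all genes with a window do. The WARS1 match begins 55 bases before that start, and the stretch around it (chr14:100375373-100375442 on the minus strand, RefSeq, GRCh38.p14) is shown because these transcripts fell the most, with the letters in capitals:
WARS1: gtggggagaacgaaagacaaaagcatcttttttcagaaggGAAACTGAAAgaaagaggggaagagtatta

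In BT549 EV the transcripts of the downstream first exon had 6238 and 6273 normalized counts and in OE 441 and 440.0. Those of the upstream first exon had 3155 and 3147 in EV and 1419 and 1369.6 in OE. The downstream exon thus gave 66.2 and 66.4 percent of WARS1 counts in EV and 23.5 and 24.3 percent in OE, and the decrease took in both starts. The same share was 33.7 and 29.4 percent in MDA-MB-231 EV and 35.4 and 41.5 percent in SUM159 EV, so the EV libraries of BT549 stood apart. Of single transcripts, WARS1-204 (471 residues, downstream first exon) had 4543 and 4388 in EV and 252 and 229 in OE (-4.21 ± 0.15), and WARS1-203 (430 residues, upstream first exon) 2525 and 2444 and 1174 and 1060.5 (-1.15 ± 0.08). The share test in limma called both (a difference of the log2 ratio of -2.59, adjusted p = 0.000624, and 2.13, adjusted p = 0.00114), among 11 of 269 member transcripts in 7 genes, where 3.52% of all transcripts were called, and both calls held without any 1 library. In SUM159 KD WARS1-204 fell by 2.25 and WARS1-203 by 0.85 on the log2 scale. The log2 ratio of WARS1-203 to the rest of the gene differed by 1.14 there (adjusted p = 0.0453), a call lost without any 1 library (adjusted p = 0.0683 to 0.171), with the replicate block (0.0807) and in diffSpliceDGE (0.431), and that of WARS1-204 by -1.08 (adjusted p = 0.0698).

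**Figure D5:**
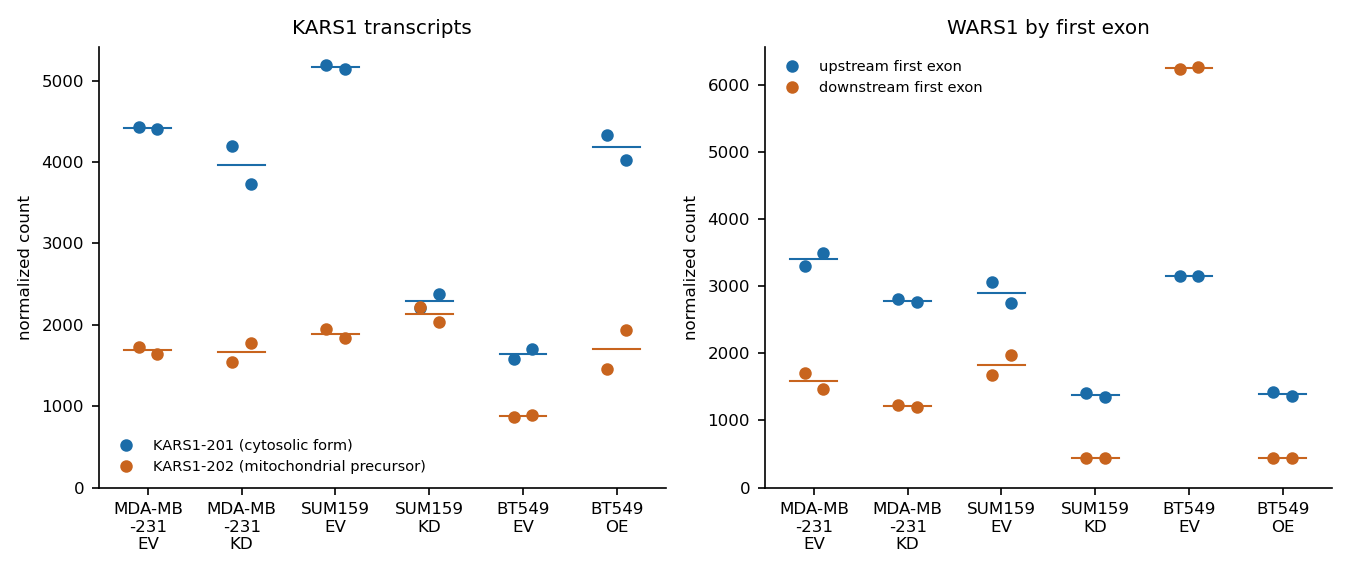
Normalized counts in each library (points, lines at group means, linear axes from 0) of KARS1-201 and KARS1-202 (left) and of WARS1 transcripts summed by first exon (right). After KD in SUM159 the 2 KARS1 forms lie at about the same level, and in BT549 the downstream WARS1 exon drops from 6238 and 6273 to about 440.7 on average.

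Interferon-response genes moved beside WARS1 in BT549. All 12 of a list of such genes were called lower in OE, with a median log2 fold change of -4.31, where 35.0% of all genes were called lower, led by TAP1 (-4.65 ± 0.04), ISG15 (-5.24 ± 0.05) and MX1 (-8.33 ± 0.08). All 12 had also been higher in BT549 EV than in either other line's EV (medians 3.68 and 2.47), where 39.1% and 37.7% of all genes were called higher. In SUM159 KD 7 of the 12 were called lower and 1 higher (median -0.70), with IRF1 at -2.10 ± 0.09 and TAP1 at -0.76 ± 0.04, where 31.4% of all genes were called lower and 28.6% higher. In MDA-MB-231 KD 6 were called higher and 2 lower (median 0.12), with TAP1 at 0.41 ± 0.04, ISG15 at -0.42 ± 0.05 and MX1 at 1.31 ± 0.22, where 21.2% of all genes were called higher and 16.5% lower. Their part in the WARS1 result was not tested.

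The companions of the synthetases in tRNA charging and delivery were called in both directions in each comparison. Of 15 such genes, 4 were called lower and 3 higher in MDA-MB-231 KD (median -0.04), 10 lower and 3 higher in SUM159 KD (median -0.32), and 9 lower and 5 higher in BT549 OE (median -0.36). Beside the 16.5%, 31.4% and 35.0% of all genes called lower and the 21.2%, 28.6% and 35.6% called higher, the counts called higher in MDA-MB-231 KD and in OE were near the background. By smallest p they were the tRNA deacylases DTD2 (-0.69 ± 0.10) and DTD1 (0.23 ± 0.05) and the amidotransferase subunit GATC (-0.26 ± 0.05) in MDA-MB-231. In SUM159 they were the tRNA exporter XPOT (-1.03 ± 0.03), the alanyl-tRNA editing protein AARSD1 (-1.20 ± 0.06) and the elongation factor EEF1A1 (-0.32 ± 0.02), and in BT549 OE EEF1A1 (0.55 ± 0.02), XPOT (-0.86 ± 0.03) and DTD1 (-0.80 ± 0.06). XPOT, which carries tRNAs out of the nucleus, fell in SUM159 KD and in BT549 OE.

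Of 9 mitochondrial translation factors, which use the tRNAs charged by the mitochondrial enzymes, 1 was called lower and 3 higher in MDA-MB-231 KD (median 0.07), 6 lower and 0 higher in SUM159 KD (median -0.40), and 6 lower and 2 higher in BT549 OE (median -0.40). The shares of all genes called lower were 16.5%, 31.4% and 35.0%, and those called higher 21.2%, 28.6% and 35.6%, so the 1 of 9 called lower in MDA-MB-231 KD and the 2 of 9 called higher in OE lay below the background. By smallest p they were GFM2 (0.53 ± 0.06), MTIF2 (-0.14 ± 0.05) and MTRF1L (0.18 ± 0.06) in MDA-MB-231, the elongation factor TUFM (-0.40 ± 0.03), the initiation factor MTIF2 (-0.62 ± 0.05) and the exchange factor TSFM (-0.67 ± 0.05) in SUM159, and TUFM (1.17 ± 0.03), TSFM (-0.95 ± 0.05) and MTIF2 (0.45 ± 0.06) in BT549 OE. In SUM159 the median of these factors lay near that of the mitochondrial synthetases (-0.51).

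HARS1 and HARS2, the cytosolic and mitochondrial histidyl enzymes, lie head to head on chromosome 5. Their RefSeq windows, chr5:140691321-140691620 for HARS1 and chr5:140691205-140691504 for HARS2, overlap, and their exons share 108 bases on opposite strands. In SUM159 KD HARS1 went from 2188 and 2208 to 1239 and 1224 (-0.84 ± 0.04) and HARS2 from 942 and 907 to 762 and 723 (-0.32 ± 0.06). In BT549 OE HARS1 rose (0.39 ± 0.04, adjusted p = 2.12e-09), and HARS2 had 1755 and 1736 in EV and 1786 and 1851 in OE (0.06 ± 0.05, adjusted p = 0.311).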

How the data were processed

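Polysome-associated RNA was sequenced in 12 libraries. Per the labels and the study's methods, the authors used Trimmomatic for trimming, HISAT2 for alignment to GRCh38, SAMtools to drop PCR duplicates, and Partek; the counting tool and its strand setting are not given in the sources used here. The labels name a poly(A) kit and the methods a stranded kit for total RNA with rRNA removed, so the library type is unsure. The authors deposited expected counts per Ensembl transcript, estimates that need not be whole, for 201932 transcripts. The 8 MDA-MB-231 and SUM159 columns hold the same unit, with question marks in place of counts for 5.08% of transcripts, and each mark was read as 0. The table holds 0 transcripts at 0 in all 4 BT549 libraries, against 18613 at 0 in all of SUM159 and 20504 in all of MDA-MB-231 (marks included), so transcripts seen only in those lines are missing from the gene sums, the genes tested and the comparisons with BT549.

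Transcripts were matched to GENCODE 44 without version numbers (79.6% of transcripts, over 99% of counts), summed per symbol and rounded. Libraries held 22954226 to 27434677 counts, and since no molecular identifiers are given, counting error is not the only error. edgeR 4.0.16 (R 4.3.3) was run with TMM scaling, its default filter, 6 group means, 6 residual degrees of freedom and the quasi-likelihood test, with Benjamini-Hochberg adjustment over 16538 genes and calls under 0.05. Standard errors are the log2 fold change over the square root of F. Transcripts were tested in the same way (64066), and their share of the gene (59573) with limma 3.58.1 on log2((transcript + 0.5)/(rest of the gene + 0.5)) of normalized counts. The tests were run on simulated data with known changes. There edgeR's diffSpliceDGE, used first, called transcripts of unchanged genes well above the set rate, so limma, which held near that rate but found only a minority of the changes, took its place after the diffSpliceDGE values had been seen, and diffSpliceDGE was kept as an alternative. TPM used transcript lengths. Some genes of the marker and companion lists are not reported here by name. DESeq2 1.42.0 and other settings were alternatives; those of the share test were chosen after seeing the data. Tables were handled in Python 3.11.15 with pandas 2.3.3.

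The members and all gene lists were chosen with earlier results of these data known. Named with values were the 3 called cytosolic and the 3 called mitochondrial enzymes with the largest change in each direction and comparison, the dual enzymes, the scaffolds, members with opposite KD effects and a called difference, TRMT112 and ATF4; companion genes, the 3 of smallest p per list and comparison, are given as fold changes. Other genes named were chosen after their values were seen. Same-numbered libraries did not deviate together within a line (correlations 0.003, -0.03 and 0.016), so replicate numbers were not used to pair them.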

Additional observations from a re-analysis of the deposited data

Results flagged for a closer look

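For 30 of the 38 genes the effect of KD differed between MDA-MB-231 and SUM159 by edgeR's quasi-likelihood test of the difference itself (adjusted p under 0.05), 29 above 0 and 1 below, where 27.7% of all genes had a difference called above 0 and 23.2% below. Values are log2 effects in MDA-MB-231 minus those in SUM159, so a positive value is a larger decrease, or a smaller increase, in SUM159. Among the cytosolic enzymes the differences were 2.29 for MARS1, 1.77 for CARS1, 1.55 for SARS1, 1.37 for TARS1, 1.32 for IARS1, 1.27 for NARS1, 1.05 for WARS1, 0.89 for EPRS1 and 0.89 for HARS1. They were 0.88 for YARS1, 0.84 for FARSB, 0.77 for FARSA, 0.73 for RARS1, 0.71 for AARS1, 0.63 for LARS1, 0.61 for VARS1 and 0.22 for QARS1.

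Among the dual enzymes they were 1.63 for GARS1 and 0.55 for KARS1, and among the scaffolds 0.97 for AIMP1, 0.87 for AIMP2 and -0.60 for EEF1E1. Among the mitochondrial enzymes they were 0.91 for IARS2, 0.82 for TARS2, 0.76 for NARS2, 0.69 for SARS2, 0.41 for YARS2, 0.41 for PARS2, 0.37 for EARS2 and 0.24 for HARS2. EEF1E1 alone had a difference called below 0. The HARS2 difference was not called under RLE size factors (adjusted p = 0.0568), and the PARS2 difference was not called without MDA-MB-231 EV replicate 2 (adjusted p = 0.0602) or SUM159 EV replicate 2 (0.0598). The depth of knockdown, the growth medium and the cell line differed together between the KD comparisons, and their parts in these differences cannot be told apart.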

How the results depend on the processing

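Of 3306 values recomputed for 152 results on members under the other settings, 3165 kept their direction and side of the threshold, 78 lost the call, 14 gained it and 49 changed sign. The replicate block, fitted because groups share replicate numbers that do not pair the libraries, changed no member call and left 23, 35 and 27 members called, but left 1 of 3 member transcripts with a changed share in SUM159 KD. Counting only the most abundant transcript of each gene left 12 of 23 members called in MDA-MB-231 KD. Calls over all genes also dropped there, from 3505 higher and 2735 lower of 16538 to 2012 higher and 1221 lower of 16200. A further demand for a change of 1 or more on the log2 scale, in either direction, left 0 in MDA-MB-231 KD, 13 of 35 in SUM159 KD, 5 of 27 in BT549 OE, 8 of 30 for the difference of the KD effects, and 4, 11 and 12 of 32, 36 and 36 in the EV comparisons. Of all 16538 genes, called or not, 842 lay at or below -1 and 621 at or above 1 in MDA-MB-231 KD. These counts were 1832 and 1811 in SUM159 KD, 3002 and 3233 in BT549 OE, and 2300 and 2058 for the difference. In the EV comparisons they were 3299 and 3498, 4344 and 3831, and 4212 and 3792, in the same order. Leaving out 1 library gave 18 to 23, 35 and 26 to 28 members called, and 0 to 1 member transcripts with a changed share in place of 0 in MDA-MB-231, 0 to 2 in place of 3 in SUM159 and 8 to 13 in place of 11 in BT549.

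The causes of the sign changes were not tested. In MDA-MB-231 KD, library size only gave -0.0399 for HARS1, -0.0773 for GARS1, -0.0618 for AIMP1, -0.0207 for CARS2, -0.0852 for EARS2 and -0.0181 for RARS2, and it moved the median of all genes to -0.08. The filter on a mean of 50 counts gave -0.0015 for GARS1 and -0.0094 for EARS2, protein-coding transcripts -0.0648 for GARS1 and -0.0952 for RARS2, and the most abundant transcript 0.0053 for CARS1, -0.0443 for GARS1, -0.12 for EARS2 and 0.69 for HARS2. EARS2 was -0.0072 in a fit of the line alone, and IARS2 0.0073 with RLE size factors and with DESeq2, as CARS2 was 0.0157 with both in SUM159 KD. In BT549 OE, NARS1 was 0.0011 and 0.001 with the count filter and with protein-coding transcripts, IARS2 0.0008 with the latter, and RARS2 0.0034, 0.0107, 0.19 and 0.83 with library size, the filter, protein-coding transcripts and the most abundant transcript, which also gave -0.12 for TARS1 and -0.22 for FARS2. The FARS2 difference was -0.0095, -0.03, -0.016, -0.0252, -0.0296 and -0.0085 with RLE, library size, the filter, protein-coding transcripts, the most abundant transcript and DESeq2. Without 1 library, log2 changes in MDA-MB-231 KD ran from -0.02 to 0.0809 for AIMP1, -0.14 to 0.011 for AIMP2, -0.0279 to 0.0409 for EARS2, -0.0193 to 0.0482 for GARS1, -0.19 to 0.0007 for LARS1 and -0.18 to 0.0205 for RARS1, and differences of the log2 ratio to the rest of the gene from -0.0755 to 0.30 for KARS1-202 and -0.55 to 0.0134 for WARS1-204. In BT549 OE they ran from -0.0302 to 0.0769 for FARS2 and -0.0663 to 0.0224 for RARS2, and the differences of the KD effects from -0.0873 to 0.14 for FARS2 and -0.14 to 0.0897 for LARS2. Depth limits the low members: in MDA-MB-231 KD the SE was 0.13 for AARS2 and 0.03 for SARS1, the lowest and highest in TPM.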
